A study of Mus musculus with 10 samples.

Results

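The major histocompatibility complex (MHC) and antigen presentation genes were described in bulk RNA of the pituitary intermediate lobe (IL). They were the genes of the deposited table whose Ensembl identifier matched a mouse symbol beginning with H2-, together with B2m, Tap1, Tap2, Tapbp, Psmb8, Psmb9, Cd74, Ciita and Nlrc5. The rule found 41 identifiers among the 29527 in the table, 33 with an H2- symbol and 8 of the 9 genes given by name. Psmb9 was not matched to an identifier and is not analysed here. A gene was tested when its values averaged 10 or more in linear units, which is 3.32 in log2 units. This left 17268 genes, among them 29 of the 41, and the other 12 lay under this filter.

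The IL was dissected from mice of 2 to 3 months and 1 library was made per mouse. The 4 WT mice carried both functional copies of Cdkn1b, the gene of the cell cycle inhibitor P27, and of Sox2. The 3 p27-/- mice carried germline null alleles of Cdkn1b. The 3 p27-/-;Sox2+/- mice carried these and in addition 1 null allele of Sox2, so that no group had a Sox2 change alone. All animals were of mixed background, and both sexes were present in each group. The comparison of p27-/- with WT samples addressed the loss of P27 before tumors form, and the comparisons of p27-/-;Sox2+/- samples addressed what the removal of a Sox2 copy changes in p27-null ILs. The values are normalized and on a log2 scale. Genes at the lower end of the table hardly varied between samples (the SD within a genotype was 0.0008 to 0.0039 for H2-Ea-ps), so that log2 differences of low genes may be understated. The read depth of each sample cannot be read from the table, and precision is limited by how many mice there were.

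MHC class I molecules are carried by nearly all nucleated cells. A heavy chain, encoded in mice by H2-K1 and H2-D1 for the classical molecules, pairs with beta-2-microglobulin (B2m) and holds a peptide that the proteasome has cut, the TAP transporter has moved into the endoplasmic reticulum and tapasin has helped to load. MHC class II molecules are pairs of an alpha and a beta chain (H2-Aa with H2-Ab1, and an E alpha chain with H2-Eb1) and are found mainly on dendritic cells, macrophages and B cells. Cd74, the invariant chain, fills their groove until H2-DM exchanges it for a peptide. CIITA switches on class II genes and NLRC5 class I genes, and interferons raise both classes.

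The upstream bases of 3 of these genes are printed because H2-Eb2 was the gene whose difference from WT passed the test, H2-Eb1 is its neighbour on chromosome 17 with the opposite sign of difference, and H2-D1 stands for the class I genes. Each is the 250 bases before the start site that RefSeq gives, 5′ to 3′ on the strand of the gene (build GRCm38.p6). For H2-Eb1 and H2-D1 this start is the first base of the annotated gene. For H2-Eb2 it is base 34325675, which lies 172 bases inside the annotated gene, so that the larger part of the H2-Eb2 stretch, with its Y box, is within the gene as annotated. Capitals mark CTGATTGG, the Y box bound by NF-Y, read on either strand, and in H2-D1 also the NF-kappa-B type motif (GGGGA, any base, TCCC), which overlaps itself there on the opposite strand.
H2-Eb2, chr17:34325425-34325674, plus strand: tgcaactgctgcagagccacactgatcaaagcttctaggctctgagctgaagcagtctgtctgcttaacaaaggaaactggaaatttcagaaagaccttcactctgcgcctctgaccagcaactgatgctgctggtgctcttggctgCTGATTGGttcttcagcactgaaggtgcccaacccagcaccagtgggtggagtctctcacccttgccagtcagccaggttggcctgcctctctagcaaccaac
H2-Eb1, chr17:34305617-34305866, plus strand: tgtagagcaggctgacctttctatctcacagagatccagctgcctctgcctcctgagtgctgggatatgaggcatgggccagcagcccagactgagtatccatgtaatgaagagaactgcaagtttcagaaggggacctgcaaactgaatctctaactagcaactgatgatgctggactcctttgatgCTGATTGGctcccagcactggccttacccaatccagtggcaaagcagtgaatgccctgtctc
H2-D1, chr17:35262844-35263093, plus strand: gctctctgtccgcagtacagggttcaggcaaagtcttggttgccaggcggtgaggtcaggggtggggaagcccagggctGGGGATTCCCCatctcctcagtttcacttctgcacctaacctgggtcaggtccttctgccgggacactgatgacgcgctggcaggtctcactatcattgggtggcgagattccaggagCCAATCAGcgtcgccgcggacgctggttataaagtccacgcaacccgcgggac

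Of the 40 symbols of the rule, 27 had a RefSeq promoter window of 250 bases before to 50 after the start. CTGATTGG was found on either strand in 10 of the 27, among them H2-Aa, H2-Eb1, H2-Eb2, H2-K1, H2-D1, H2-Q6, H2-Q7, H2-T23 and Tap1, and in 4.70% of all 27025 genes with a window. The first base of the motif lay at -103 in H2-Eb2 and at -62 in H2-Eb1, in bases from the start of each window, which for H2-Eb2 is the inner start given above. The NF-kappa-B type motif was found in 4 of the 27, H2-K1, H2-D1, H2-Q6 and H2-Q7, and in 0.381% of all genes. The interferon type motif (GAAA, any 2 bases, GAAA), on either strand like all of these, was found in B2m, H2-T22 and H2-T23 and in 3.99% of all genes. The X2 half-site TGACGC was found in H2-D1, H2-K1, H2-M3 and H2-Q4 and in 8.37% of all genes, and a STAT type motif (TTTCC, any base, GGAA) in H2-DMb2 alone of the 27 and in 0.581% of all genes. Such matches describe the letters of these windows and are not binding sites.

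One gene of the group, H2-Eb2, passed the test in p27-/- against WT ILs, which is 1 of the 29 (limma, Benjamini-Hochberg adjustment over all tested genes, threshold 0.05). These were 3.45% of the group, and 7.78% of all tested genes passed. In p27-/-;Sox2+/- against WT ILs 0 of the 29 passed, beside 2.71% of all tested genes, and between the mutants 0 of the 29, beside 0.145%. At an unadjusted p under 0.05 there were 4, 6 and 0 of the 29 in these comparisons, and 24.1%, 17.8% and 6.65% of all tested genes. The median log2 difference of the 29 was -0.04 for p27-/- against WT, -0.19 for p27-/-;Sox2+/- against WT and -0.11 between the mutants, beside 0.01, 0.01 and -0.0043 for all tested genes. Leaving out WT replicate 1 gave medians against WT of 0.04 and -0.08, and without p27-/- replicate 3 the first was -0.14 and that between the mutants -0.06. Without p27-/- replicate 1 the first was -0.0054, and it was -0.10 without WT replicate 2 or WT replicate 3 and -0.06 without WT replicate 4. That between the mutants was -0.07 without p27-/-;Sox2+/- replicate 3. The comparisons with WT share the 4 WT samples and are not independent of each other.

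H2-Eb2 (ENSMUSG00000067341), a second E beta chain gene of the class II region, lies on chromosome 17 of GRCm38.p6 from 34325503 to 34341410. Its log2 values were 5.38, 5.33, 5.63 and 5.57 in WT samples, 6.16, 6.55 and 6.06 in p27-/- samples and 5.87, 6.02 and 6.03 in p27-/-;Sox2+/- samples. Every mutant sample was above every WT sample, and the p27-/- samples were above the p27-/-;Sox2+/- samples. The mean log2 value of WT samples was 5.48 ± 0.15 (SD, n = 4), that of p27-/- samples 6.26 ± 0.26 (SD, n = 3), and p27-/-;Sox2+/- samples averaged 5.98 ± 0.09 (SD, n = 3). H2-Eb2 was 0.78 higher on the log2 scale in p27-/- than in WT samples (standard error 0.14, 1.72-fold, limma adjusted p = 0.00509), and it passed the test in each of the 19 alternative fits, with adjusted p from 0.00368 to 0.0297. Its log2 difference in p27-/-;Sox2+/- against WT samples was 0.50 (standard error 0.14, limma adjusted p = 0.0711), which did not pass the threshold. It passed with array weights, a setting that gives noisy samples less weight (0.52, adjusted p = 0.0307). The weights were uneven, at 3.46 for p27-/-;Sox2+/- replicate 2 and 0.88 and 0.77 for replicates 1 and 3 of that genotype. The lowest was 0.45, for WT replicate 3, so that fits with array weights lean much on a single mouse. Between the mutants the log2 difference was -0.28 (95% interval -0.60 to 0.03, limma adjusted p = 0.835), so that a difference between p27-/- and p27-/-;Sox2+/- samples was not shown.

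**Figure D1:**
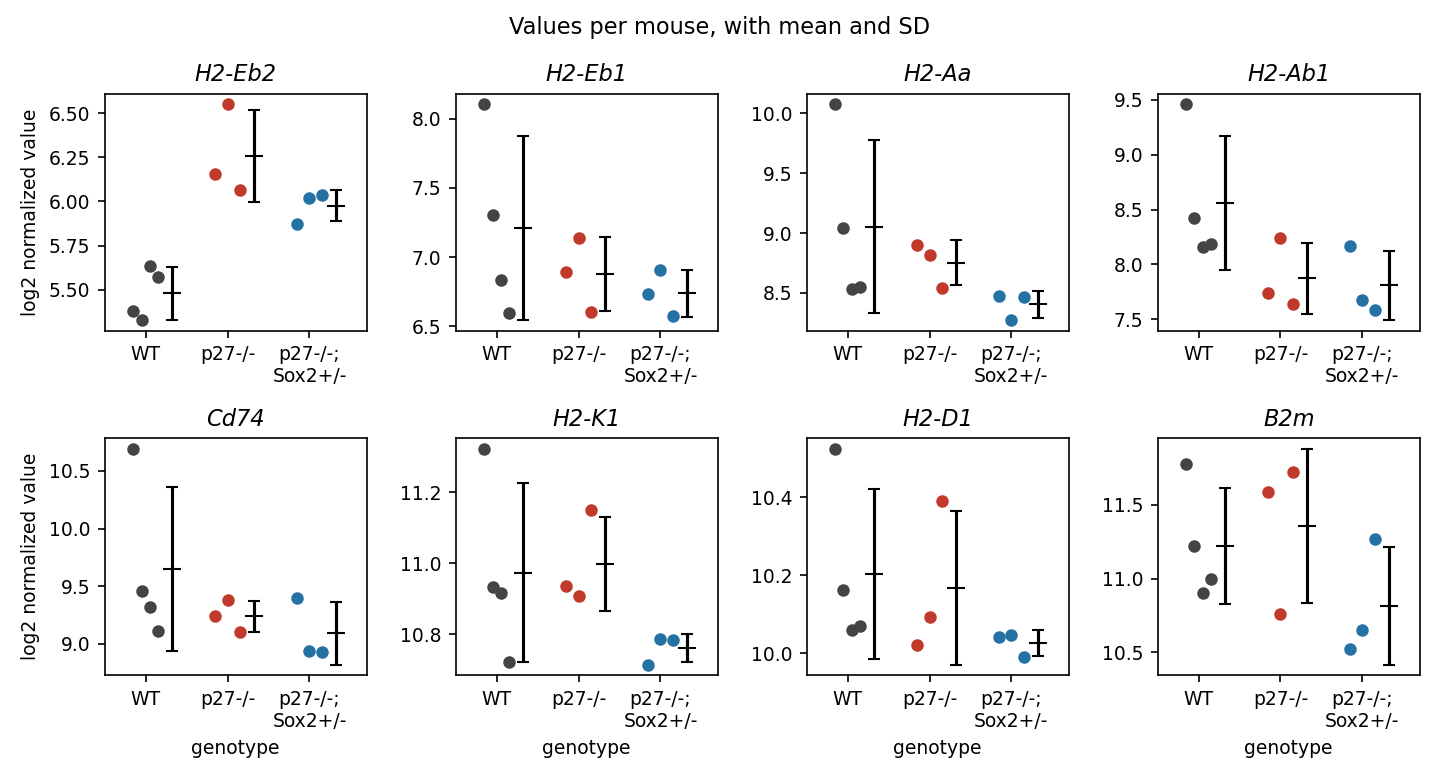
Log2 normalized values of 8 genes (vertical axes, not starting at 0) for each mouse by genotype (horizontal axes, 4 WT, 3 p27-/- and 3 p27-/-;Sox2+/-), with the mean and SD of each group beside the points. The WT values of H2-Eb2 lie between 5.33 and 5.63, below all mutant samples, and for H2-Aa, H2-Ab1, H2-Eb1 and Cd74 a single WT mouse stands above the other 9.

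Against WT the other class II genes did not follow H2-Eb2, and none of them passed the test. Of the 7 genes for class II chains and Cd74, 5 were negative in p27-/- and 6 in p27-/-;Sox2+/- against WT samples. Between the mutants all 7 were negative, H2-Eb2 among them, and 0 passed. Of all tested genes 48.4%, 47.9% and 51.4% were negative in these comparisons. H2-Ab1, the A beta chain, had log2 values of 9.46, 8.43, 8.16 and 8.18 in WT samples, 7.74, 8.24 and 7.64 in p27-/- samples and 8.17, 7.68 and 7.58 in p27-/-;Sox2+/- samples. WT replicate 1 was the highest of the 10, and the groups overlapped. The log2 difference of H2-Ab1 against WT was -0.69 in p27-/- (standard error 0.27, limma adjusted p = 0.132) and -0.75 in p27-/-;Sox2+/- samples (standard error 0.27, limma adjusted p = 0.153). Without WT replicate 1 these differences were -0.39 and -0.45.

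H2-Aa, the A alpha chain, had log2 values of 10.08, 9.04, 8.54 and 8.55 in WT samples, 8.90, 8.81 and 8.54 in p27-/- samples and 8.47, 8.27 and 8.47 in p27-/-;Sox2+/- samples. All p27-/-;Sox2+/- samples were below all samples of the other genotypes, while WT and p27-/- samples overlapped. Its log2 difference was -0.30 for p27-/- against WT (limma adjusted p = 0.544), -0.65 for p27-/-;Sox2+/- against WT (adjusted p = 0.231) and -0.35 between the mutants (adjusted p = 0.972), none past the threshold. Without WT replicate 1 the first of these was 0.04 and the second -0.30.

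H2-Eb1, the E beta chain, had log2 values of 8.10, 7.30, 6.83 and 6.60 in WT samples, 6.89, 7.14 and 6.60 in p27-/- samples and 6.73, 6.91 and 6.57 in p27-/-;Sox2+/- samples. The invariant chain gene Cd74 had log2 values of 10.69, 9.46, 9.32 and 9.12 in WT, 9.24, 9.38 and 9.11 in p27-/- and 9.40, 8.94 and 8.93 in p27-/-;Sox2+/- samples. In both genes WT replicate 1 was above every other sample and the remaining samples overlapped across the genotypes. The log2 difference against WT of H2-Eb1 was -0.33 in p27-/- and -0.47 in p27-/-;Sox2+/- samples (limma adjusted p = 0.483 and 0.387), and that of Cd74 was -0.41 and -0.56 (adjusted p = 0.396 and 0.314). Without WT replicate 1 they were -0.04 and -0.17 for H2-Eb1 and -0.06 and -0.21 for Cd74.

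H2-DMa and H2-DMb1 encode the chains of H2-DM, which loads class II molecules with peptide. H2-DMa had log2 values of 6.11, 5.40, 5.77 and 5.40 in WT, 5.67, 5.96 and 5.57 in p27-/- and 5.48, 5.33 and 5.47 in p27-/-;Sox2+/- samples. Its log2 difference between the mutants was -0.31 (standard error 0.18, limma adjusted p = 0.875), and p27-/-;Sox2+/- samples lay below the p27-/- samples without overlap. It was -0.19 without p27-/- replicate 2. H2-DMb1 was at 3.86 to 3.91 in p27-/-;Sox2+/-, 3.97 to 4.02 in p27-/- and 3.88 to 4.47 in WT samples, and its log2 difference of p27-/-;Sox2+/- against WT was -0.30 (limma adjusted p = 0.190). Of the 10 class II identifiers, 4 lay under the filter, H2-DMb2, H2-Oa, H2-Ob and H2-Ea-ps. H2-Ea-ps, the E alpha gene, which RefSeq annotates as a transcribed pseudogene, was at -1.89 to -1.88, next to the lowest log2 value of the table (-1.89), so that these libraries gave next to no signal for an E alpha partner of H2-Eb1 and H2-Eb2.

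The classical class I heavy chains and B2m were measured at high log2 values in every mouse. H2-K1 had log2 values of 11.32, 10.93, 10.92 and 10.72 in WT, 10.93, 10.91 and 11.15 in p27-/- and 10.71, 10.79 and 10.78 in p27-/-;Sox2+/- samples. H2-D1 had log2 values of 10.52, 10.16, 10.06 and 10.07 in WT, 10.02, 10.09 and 10.39 in p27-/- and 10.04, 10.05 and 9.99 in p27-/-;Sox2+/- samples. In both, WT replicate 1 and p27-/- replicate 3 were the highest samples. The log2 difference of H2-K1 was 0.02 for p27-/- against WT (95% interval -0.23 to 0.28), -0.21 for p27-/-;Sox2+/- against WT (-0.47 to 0.04) and -0.24 between the mutants (-0.51 to 0.04). That of H2-D1 was -0.04 for p27-/- against WT (95% interval -0.29 to 0.22) and -0.18 for p27-/-;Sox2+/- against WT (-0.43 to 0.08). None of these passed the test (limma adjusted p from 0.378 to 0.930), and the sign of H2-K1 and H2-D1 in p27-/- against WT samples turned in some alternative fits. Without WT replicate 1 the difference of p27-/-;Sox2+/- against WT samples was -0.10 for H2-K1 and -0.07 for H2-D1.

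B2m, the light chain shared by all class I molecules, lies on chromosome 2 from 122147687 to 122153082. It had log2 values of 11.78, 11.22, 10.90 and 11.00 in WT, 11.59, 10.76 and 11.72 in p27-/- and 10.52, 10.65 and 11.27 in p27-/-;Sox2+/- samples. Its SD within a genotype was 0.39 to 0.52, and all groups overlapped. Its log2 difference was 0.13 for p27-/- against WT, -0.41 for p27-/-;Sox2+/- against WT and -0.54 between the mutants (limma adjusted p = 0.789, 0.408 and 0.790). The first was -0.05 without p27-/- replicate 3 and 0.43 without p27-/- replicate 2, and the last was -0.36 and -0.84 without the same samples. Without WT replicate 1 the first and the second were 0.32 and -0.22.

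Of the 19 other class I identifiers 11 were tested, from the H2-Q, H2-T and H2-M groups, and 0 passed the test in any comparison. H2-Q6, a class I gene on chromosome 17 from 35424850 to 35430055, had the largest differences from WT of them. Its log2 values were 7.01, 6.22, 6.72 and 6.95 in WT, 6.39, 6.08 and 6.44 in p27-/- and 6.14, 6.12 and 6.29 in p27-/-;Sox2+/- samples. WT replicate 2 lay among the mutants, and the other 3 WT samples lay above all mutants. The log2 difference against WT was -0.42 in p27-/- and -0.54 in p27-/-;Sox2+/- samples (standard error 0.17, limma adjusted p = 0.154 and 0.111). Without WT replicate 2 both passed the test, at -0.59 (adjusted p = 0.0209) and -0.71 (adjusted p = 0.0157), and with array weights the second did (-0.56, adjusted p = 0.0462). Its neighbour H2-Q7 did not show this pattern, with a mean log2 value of 7.06 ± 0.33 (SD, n = 4) for WT samples. Its mean was 7.08 ± 0.42 (SD, n = 3) for p27-/- and 6.81 ± 0.19 (SD, n = 3) for p27-/-;Sox2+/- samples. The H2-Q and H2-T genes are close copies of each other, and reads that match several of them were divided by an estimate, so that a difference of a single one is uncertain.

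The linear values of all 21 class I heavy chain identifiers were also added up, which makes the total less dependent on how reads were divided, though how much was not tested. The log2 of the sum was 12.51, 12.22, 12.18 and 12.12 in WT, 12.10, 12.15 and 12.37 in p27-/- and 12.08, 12.10 and 12.11 in p27-/-;Sox2+/- samples. The means were 12.26 ± 0.17 (SD, n = 4), 12.21 ± 0.14 (SD, n = 3) and 12.10 ± 0.02 (SD, n = 3). WT replicate 1 and p27-/- replicate 3 were the highest samples, and the p27-/-;Sox2+/- samples were close together at the lower end. Under the filter were H2-Bl, H2-K2, H2-M10.2, H2-M2, H2-M5, H2-M6-ps, H2-T3 and the H2-Q2 identifier ENSMUSG00000079507, and the other H2-Q2 identifier, ENSMUSG00000091705, was tested. H2-M2 was at 3.23 in WT replicate 1 and at 2.41 to 2.63 in the other 9 samples.

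Tap1 and Tap2 together encode the TAP peptide transporter, Tapbp encodes tapasin and Psmb8 a catalytic subunit of the immunoproteasome. Tap1 had log2 values of 6.91, 6.22, 6.12 and 6.66 in WT, 5.84, 6.21 and 6.61 in p27-/- and 6.34, 6.36 and 6.22 in p27-/-;Sox2+/- samples, and Tap2 had 5.75, 5.71, 5.88 and 5.97 in WT, 5.73, 5.58 and 5.55 in p27-/- and 5.69, 5.60 and 5.59 in p27-/-;Sox2+/- samples. Tap1 values overlapped throughout, and p27-/-;Sox2+/- samples were below the WT samples for Tap2. The log2 difference against WT was -0.26 and -0.17 for Tap1 and -0.21 and -0.20 for Tap2 in p27-/- and p27-/-;Sox2+/- samples (limma adjusted p from 0.271 to 0.707). Those of Tap1 were -0.11 and -0.03 without WT replicate 1, and with any 1 sample left out they ranged from -0.45 (without p27-/- replicate 3) to -0.06 (without p27-/- replicate 1) and from -0.29 (without WT replicate 3) to -0.03.

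Tapbp had log2 values of 9.29, 9.23, 8.76 and 9.20 in WT, 9.35, 9.47 and 9.44 in p27-/- and 9.48, 9.21 and 9.26 in p27-/-;Sox2+/- samples. All p27-/- samples were above all WT samples, with a log2 difference of 0.30 (standard error 0.12, limma adjusted p = 0.139) that was 0.18 without WT replicate 3, the lowest sample. In p27-/-;Sox2+/- against WT samples it was 0.20 (adjusted p = 0.419), and 0.08 without that sample. Psmb8 had log2 values of 7.05, 6.13, 6.15 and 6.35 in WT, 6.23, 6.40 and 6.59 in p27-/- and 6.27, 6.11 and 5.99 in p27-/-;Sox2+/- samples, with WT replicate 1 again the highest. Its log2 difference against WT was -0.01 in p27-/- and -0.29 in p27-/-;Sox2+/- samples (adjusted p = 0.982 and 0.457), and without WT replicate 1 it was 0.20 and -0.08.

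Ciita, on chromosome 16 from 10480014 to 10531064, had log2 values of 4.52, 4.43, 3.97 and 4.15 in WT, 4.33, 4.29 and 4.18 in p27-/- and 4.24, 4.38 and 4.13 in p27-/-;Sox2+/- samples. The group means of this class II transactivator lay between 4.25 and 4.27. Nlrc5, on chromosome 8 from 94434335 to 94527272, had log2 values of 5.45, 5.22, 4.98 and 5.10 in WT, 4.87, 4.94 and 5.38 in p27-/- and 4.74, 4.89 and 4.79 in p27-/-;Sox2+/- samples. All p27-/-;Sox2+/- samples were below all WT samples, with a log2 difference of -0.38 (standard error 0.14, limma adjusted p = 0.169), and the difference in p27-/- against WT samples was -0.13 (adjusted p = 0.625), which ranged from -0.29 (without p27-/- replicate 3) to -0.03 (without p27-/- replicate 1) and was -0.04 without WT replicate 1. The remaining 2 identifiers, H2-Ke2 and H2-Ke6, carry an H2- symbol without encoding an MHC chain, and neither passed the test.

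**Figure D2:**
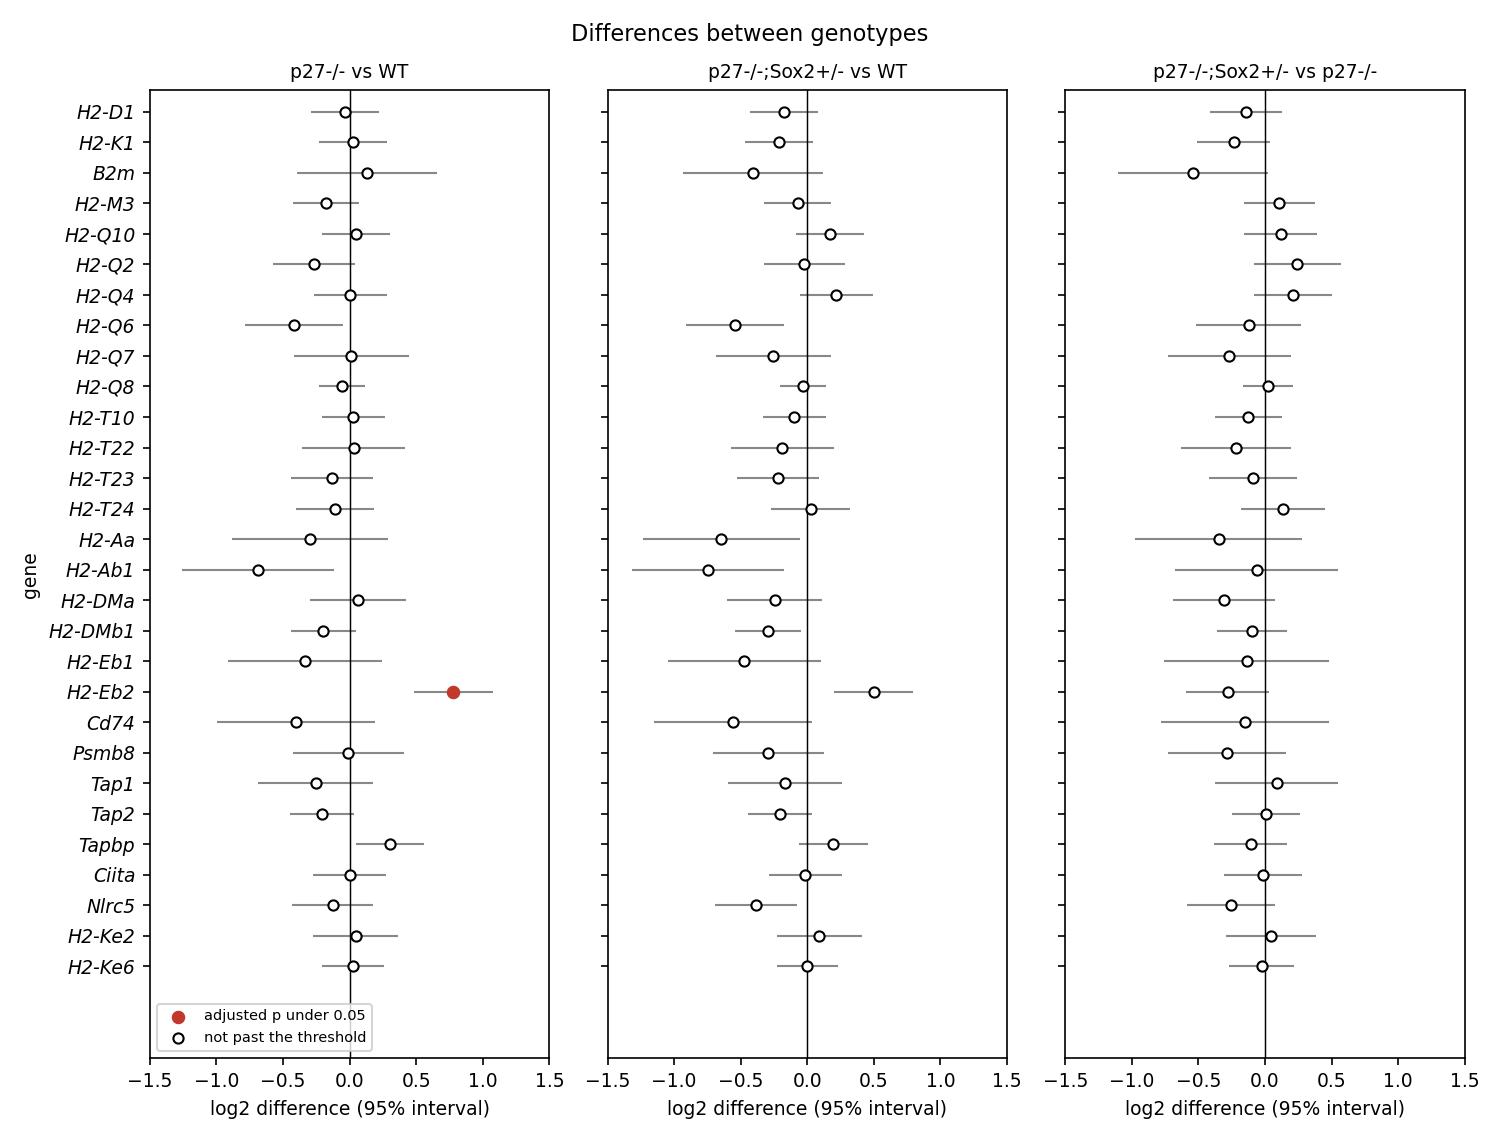
Log2 differences (horizontal axes) of the 29 tested genes (vertical axis) in the 3 comparisons, with 95% intervals from limma. Filled points passed an adjusted p of 0.05, and H2-Eb2 in p27-/- against WT is the single filled point.

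Counted by groups that do not overlap, H2-Eb2 and Tapbp were above WT in all p27-/- samples, 2 of the 29 beside 10.2% of all tested genes, and 0 of the 29 were below WT, beside 10.3%. In p27-/-;Sox2+/- samples H2-Eb2 was above WT, 1 of the 29 beside 7.02%, and H2-Aa, H2-D1, Nlrc5 and Tap2 were below, 4 of the 29 (13.8%) beside 8.01%. Between the mutants H2-M3 was higher in p27-/-;Sox2+/- samples, 1 of the 29 beside 7.51%, and H2-Eb2, H2-K1, H2-DMa, H2-Aa, H2-T22, H2-T10 and H2-DMb1 were lower, 7 of the 29 (24.1%) beside 7.75%. A negative log2 difference was found in 16, 23 and 20 of the 29 in the same order of comparisons, beside 48.4%, 47.9% and 51.4% of all tested genes.

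Single mice stood out within their genotype. WT replicate 1 was the highest of the 10 samples in 16 of the 29 genes, while it was the highest in 13.6% of all tested genes. It was the highest in 6 of 7 genes for class II chains and Cd74, all but H2-Eb2, and in 6 of 14 for class I heavy chains and B2m. p27-/-;Sox2+/- replicate 1 was the highest in 5 of the 29, beside 8.68% of all tested genes, and each other sample in 0 to 2. Across the 10 samples the log2 range was widest for H2-Ab1 (1.88), H2-Aa (1.80), Cd74 (1.76) and H2-Eb1 (1.53), followed by B2m (1.26) and H2-Eb2 (1.22).

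**Figure D3:**
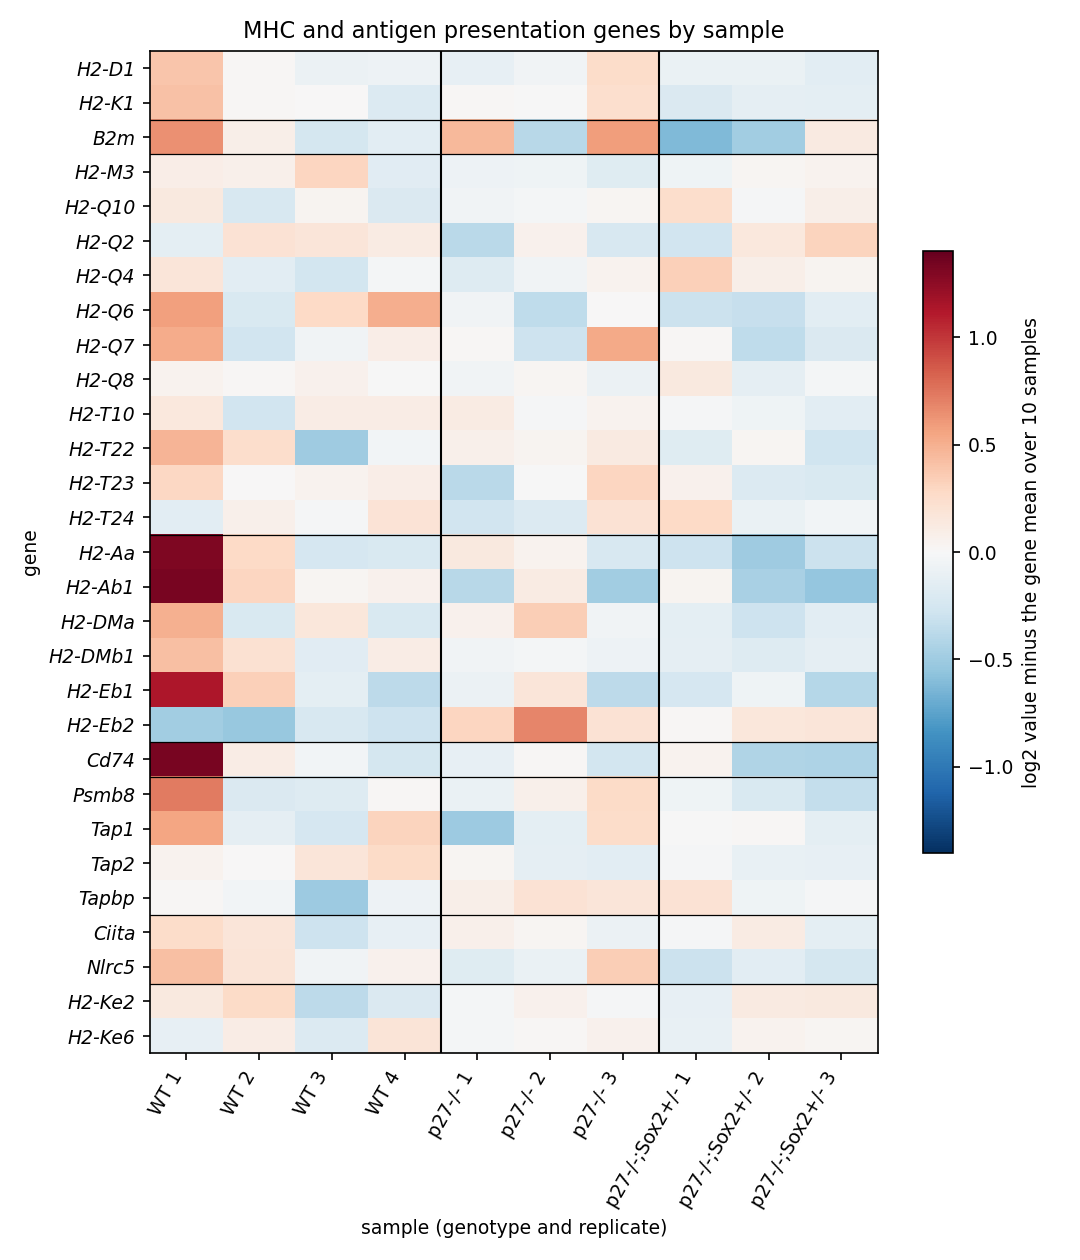
Log2 value minus the mean of the gene over the 10 samples (colour scale) for the 29 tested genes (rows, grouped by role) in each sample (columns, grouped by genotype). The column of WT replicate 1 is the highest of the 10 in 16 genes, with H2-Aa, H2-Ab1, H2-Eb1 and Cd74 at the far end of the scale, and H2-Eb2 is low in all 4 WT columns.

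For each list of genes the log2 values were centred over the 10 samples and averaged in each sample. The 7 genes for class II chains and Cd74 gave 0.79, 0.07, -0.09 and -0.17 in WT, -0.02, 0.19 and -0.18 in p27-/- and -0.10, -0.25 and -0.25 in p27-/-;Sox2+/- samples. The 14 genes for class I heavy chains and B2m gave 0.26, -0.03, -0.01 and 0.02 in WT, -0.06, -0.09 and 0.13 in p27-/- and -0.05, -0.11 and -0.05 in p27-/-;Sox2+/- samples. Class II was thus highest in WT replicate 1 (0.79) and next, far lower, in p27-/- replicate 2 (0.19). Class I was highest in WT replicate 1 (0.26) and next in p27-/- replicate 3 (0.13).

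Interferon-stimulated genes are induced with class I genes when cells sense virus or interferon. Of the 38 tested, 0 passed the test in any comparison, beside 7.78%, 2.71% and 0.145% of all tested genes. An unadjusted p under 0.05 was found for 1, 5 and 7 in p27-/- and in p27-/-;Sox2+/- samples compared with WT and between the mutants. Of all tested genes 24.1%, 17.8% and 6.65% had such a p. The median log2 difference of the 38 was 0.14, -0.21 and -0.40 in this order, beside 0.01, 0.01 and -0.0044 for all tested genes. Without p27-/- replicate 3 the first turned to -0.09 and the third was -0.13. When WT replicate 1 was left out the first was 0.24 and the second -0.06, and leaving out any other sample gave 0.07 to 0.31, -0.32 to -0.18 and -0.55 to -0.33. Their mean centred log2 value was 0.44, -0.07, -0.14 and -0.10 in WT, 0.02, -0.17 and 0.59 in p27-/- and -0.02, -0.31 and -0.24 in p27-/-;Sox2+/- samples. WT replicate 1 and p27-/- replicate 3 were thus high, as for H2-K1, H2-D1 and the class I sum. That sum contains H2-K1 and H2-D1, the class I heavy chains with the highest values, and is not separate from them. The genes with the smallest p were Ifi35 and Tgtp1 for p27-/- against WT (log2 differences 0.43 and 0.55, limma adjusted p = 0.0759 and 0.316), Oasl2 and Ifit3 for p27-/-;Sox2+/- against WT (-0.60 and -0.87, adjusted p = 0.0884 and 0.107) and Gbp2 and Zbp1 between the mutants (-0.43 and -0.63, adjusted p = 0.517 and 0.638).

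Of 11 tested genes of interferon signalling, receptors, kinases and transcription factors, 0 passed the test in any comparison. An unadjusted p under 0.05 was found for 0, 1 and 0 of them, beside 24.1%, 17.8% and 6.65% of all tested genes.

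**Figure D4:**
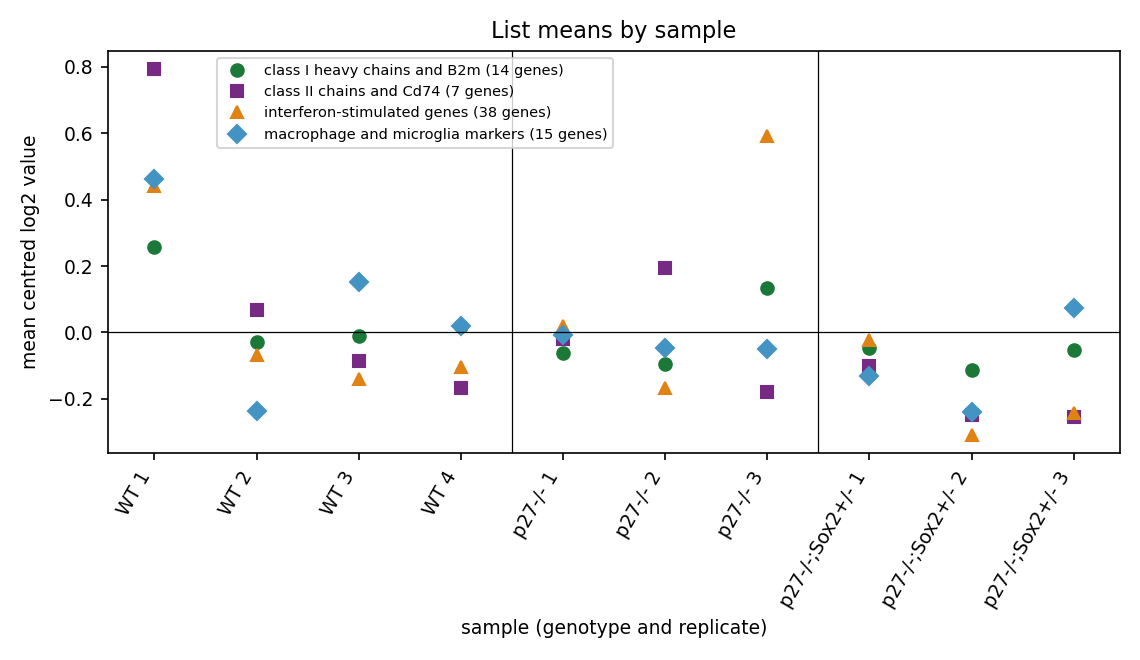
Mean of the centred log2 values (vertical axis) in each of the 10 samples (horizontal axis) for class I heavy chains and B2m, class II chains and Cd74, interferon-stimulated genes, and macrophage and microglia markers. WT replicate 1 is high for all 4 lists, at 0.26 to 0.79, and p27-/- replicate 3 is high for interferon-stimulated genes (0.59) and class I (0.13) but not for class II (-0.18). The class I point of WT replicate 4 lies under its macrophage point.

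Markers of cells that carry class II were compared in the same way. Of 15 tested macrophage and microglia markers 0 passed the test in any comparison. An unadjusted p under 0.05 was found for 2, 3 and 0 of the 15, beside 24.1%, 17.8% and 6.65% of all tested genes. The mean centred log2 value of the 15 was 0.46, -0.24, 0.15 and 0.02 in WT samples. It was -0.05 to -0.01 in p27-/- and -0.24 to 0.07 in p27-/-;Sox2+/- samples. WT replicate 1, the highest for class II, was also the highest for the mean of these markers, though not for each of them. Cx3cr1, Fcer1g, Trem2 and Mrc1 were highest in other samples. Cd163 was lowest in WT replicate 1, at 4.50, and highest in p27-/-;Sox2+/- replicate 1, at 5.55. The part of macrophages in the class II values was not tested. In bulk RNA fewer cells of a type and less RNA per cell cannot be told apart. Ptprc (CD45) and Csf1r were at log2 values of 7.52 and 7.65 in WT replicate 1 and at 6.37 to 7.18 and 6.71 to 7.40 in the other samples. Cd163, a scavenger receptor of resident macrophages, was higher by 0.43 and 0.53 in p27-/- and p27-/-;Sox2+/- than in WT samples, without passing the threshold (limma adjusted p = 0.0749 and 0.0586), opposite in sign to the list median of -0.14 and -0.21. The list medians became -0.0056 and -0.06 when WT replicate 1 was left out.

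Of 8 dendritic cell markers 3 passed the filter, Itgax, Zbtb46 and Clec9a, and 0 of these passed the test. Flt3, Xcr1, Cd209a, Batf3 and Ccr7 were under the filter, the last at -0.23 to -0.11. Of 10 lymphocyte markers Cd4 alone passed the filter, at 3.56 to 4.08, and the B cell genes Cd79a, Cd79b and Ms4a1 were at log2 values of at most 1.66 in all samples. Cd3e was at 2.97 in WT replicate 1 and at 2.39 to 2.55 in the other samples. The melanotroph markers that define the tissue were high in all libraries (Pomc 18.00 to 19.00, Pax7 11.45 to 11.97, log2 values). All 5 had a positive log2 difference in p27-/- against WT samples, with a median of 0.27, and 51.6% of all tested genes were positive. Pcsk2, a prohormone convertase, passed the test there (0.53, limma adjusted p = 0.0352), 1 of the 5 beside 7.78% of all tested genes. In p27-/-;Sox2+/- against WT samples 4 of 5 were positive, beside 52.1%, and 0 passed, beside 2.71%. Of 5 pituitary stem cell markers Cdh1 was lower (-0.58, adjusted p = 0.0126) and Epcam higher (0.35, adjusted p = 0.0346) in p27-/- than in WT samples. In this comparison 7.78% of all tested genes passed.

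Of 9 genes listed for class I peptide loading, 0 passed the test in any comparison. The list was B2m, Tap1, Tap2 and Tapbp, which are described above, with Tapbpl, Calr, Canx, Pdia3 and Erap1. An unadjusted p under 0.05 was found for 3, 0 and 0 of the 9, beside 24.1%, 17.8% and 6.65% of all tested genes. Canx, the chaperone calnexin, had the smallest p of the 9 in p27-/- against WT samples. Its log2 difference was 0.24 (limma adjusted p = 0.118). A list of 15 proteasome genes held Psma1 to Psma7, Psmb1 to Psmb7 and Pomp. The constitutive proteasome and the immunoproteasome share most of these, so that the list does not stand for the constitutive form alone. All 15 had a positive log2 difference in p27-/- against WT samples, with a median of 0.25. An unadjusted p under 0.05 was found for 10 of them, and 0 passed the adjusted threshold. Psma6 came closest (0.32, limma adjusted p = 0.0717). Of all tested genes 51.6% were positive and 24.1% had an unadjusted p under 0.05 in this comparison. In p27-/-;Sox2+/- against WT samples 12 of the 15 were positive, beside 52.1% of all tested genes, with a median of 0.10. Between the mutants 0 of the 15 were positive, beside 48.6% of all tested genes, with a median of -0.15. In each of these comparisons 2 of the 15 had an unadjusted p under 0.05, beside 17.8% and 6.65% of all tested genes. The 4 matched genes of the immunoproteasome and its activator had median log2 differences of 0.02 in both comparisons with WT. Psmb8, described above, is among them, and 0 of the 4 passed the test. The lists that follow also hold Cd74, Ciita and Nlrc5, which are described above. Of 9 factors of the module that binds class I and II promoters (RFX, NF-Y, CREB, CIITA and NLRC5), 8 class II accessory genes such as Ctss, Lgmn and Cd86, and 4 class I-like genes outside the H2 group (Mr1, Cd1d1 and Fcgrt among them), 0 passed the test in any comparison.

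The genes that lie between and beside the H2 genes on chromosome 17 but do not present antigen were taken as a further list. Of 51 tested, 2 passed the test in p27-/- against WT samples, beside 7.78% of all tested genes: Rnf5, a ubiquitin ligase, with a log2 difference of 0.55 (limma adjusted p = 0.0153), and C2, a complement component, with -0.63 (adjusted p = 0.00552). In the other comparisons 0 of the 51 passed, beside 2.71% and 0.145% of all tested genes. An unadjusted p under 0.05 was found for 14 of the 51 in p27-/- against WT samples, beside 24.1% of all tested genes. In the other comparisons it was found for 8 and 1 of the 51, beside 17.8% and 6.65%. The closest to the threshold in these was Cfb, complement factor B, in p27-/-;Sox2+/- against WT samples (-0.43, adjusted p = 0.0512).

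Genes with the most similar pattern over the 10 samples were sought for H2-K1 and H2-Aa among 14853 tested genes with a symbol, by Pearson correlation of log2 values, as a description. For H2-K1 they were Dnase1l3 (0.943), Slc9a9 (0.935) and Ccl5 (0.931), and for H2-Aa they were Slc38a10 (0.961), Cd74 (0.942) and Lman2 (0.941). For H2-Eb2, chosen for this after its values were seen, they were Tymp (0.974), Plcl2 (0.959) and Pdyn (0.935). The points share the same 10 libraries, and WT replicate 1 was the highest sample for H2-K1 and for H2-Aa.

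The targeted genes were checked in each sample. Cdkn1b was at log2 values of 8.39 to 8.85 in WT, 8.04 to 8.27 in p27-/- and 7.73 to 8.10 in p27-/-;Sox2+/- samples, without overlap between WT and the mutants, and the table counts all of the transcript and not the deleted part. Sox2 was at 6.88 to 7.07 in p27-/-;Sox2+/- samples and at 7.08 to 7.75 in the others. Its log2 difference in p27-/-;Sox2+/- samples was -0.46 against WT and -0.29 against p27-/- samples (limma adjusted p = 0.0811 and 0.79). In p27-/- against WT samples it was -0.17 (limma adjusted p = 0.459), and none of these passed the threshold. Posterior lobe markers, which mark adjoining tissue, had mean centred log2 values of -0.52 to 0.79 in WT, -0.33 to -0.04 in p27-/- and -0.71 to 0.48 in p27-/-;Sox2+/- samples, and endothelial markers -0.06 to 0.42, -0.32 to -0.03 and -0.26 to 0.14. Of 9 tested endothelial markers Kdr and Flt1, receptors for VEGF, passed the test as lower in both mutants than in WT samples. The log2 differences were -0.83 and -0.75 in p27-/- samples (limma adjusted p = 0.00966 and 0.0290). In p27-/-;Sox2+/- samples they were -0.67 and -0.80 (limma adjusted p = 0.0459 and 0.0379). Of all tested genes 7.78% and 2.71% passed in these comparisons. Of 6 fibroblast markers Pdgfra and Lum were lower in p27-/- than in WT samples (-0.75 each), Pdgfra with an adjusted p of 0.0459 and Lum at the threshold itself. The 6 were not all lower there, with 4 negative and 2 positive log2 differences, beside 48.4% of all tested genes negative. Markers of the anterior lobe had a mean centred log2 value of 1.97 in WT replicate 2, the sample that lay apart for H2-Q6, and of -0.96 to 0.80 in the other 9. Fshb, the beta chain of follicle-stimulating hormone, passed the test as lower than in WT samples in both mutants. Its log2 differences were -2.04 (limma adjusted p = 0.0280) for p27-/- and -2.27 (limma adjusted p = 0.0294) for p27-/-;Sox2+/- samples. The groups overlapped, with WT replicate 1 at 7.15 and the other WT samples at 9.24 to 9.64. Fshb was at 6.37 to 7.26 in p27-/- and 5.91 to 7.50 in p27-/-;Sox2+/- samples. Of the 5 tested anterior lobe markers 3 and 5 had a negative log2 difference, beside 48.4% and 47.9% of all tested genes. The part of these differences in the antigen presentation values was not tested.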

How the data were processed

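Bulk RNA-seq of dissected ILs from 4 WT, 3 p27-/- and 3 p27-/-;Sox2+/- mice was analysed. Per the paper's methods and the submitters' processing notes, reads were aligned with STAR 2.5.2a, quantified without strand by RSEM 1.3.30 on Ensembl mouse GRCm38 and normalized with DESeq2 1.18.1. The authors deposited log2 values for 29527 genes. The transformation is not given in the sources used here, and the values were tested as they are. Identifiers were matched to symbols with a gene name table (22709 matched) and positions and promoters were taken from RefSeq GRCm38.p6 by symbol. Where 2 identifiers carry the symbol H2-Q2, no position is given. Genotypes were compared in a single limma 3.58.1 model in R 4.3.3 (lmFit, eBayes with trend), with adjustment over the 17268 genes whose mean was at least 10 on the linear scale, and the model was tested on simulated data. Tables and figures were made with Python 3.11.15, pandas 2.3.3, numpy 2.4.6 and matplotlib 3.10.9. Because the values are not counts, no count model was run.

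The genes and lists were chosen with earlier results of these data known. By the rule for named genes, values per sample are given for the genes listed by name, H2-K1, H2-D1, H2-Aa, H2-Ab1 and H2-Eb1, those past the threshold and the 3 with the largest difference in each comparison, and of each list genes past the threshold or the 2 with the smallest p may be named, of which the text gives a part. List medians with a sample left out were added after seeing the data. H2-Q7, H2-M2, Ptprc, Csf1r and the genes under the filter were named after their values were seen. The alternatives were fits with no filter or a mean of at least 50, of 2 groups, without trend, with array weights, with median-centred or quantile-normalized values, with Xist as a covariate, with a block for the replicate number and with each sample left out. Replicates are separate mice. The numbers did not pair them.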

Additional observations from a re-analysis of the deposited data

Results flagged for a closer look

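Among 34 measures of the 4 WT samples (the 29 tested genes and 5 list means), 3 had a sample so far from its nearest neighbour, relative to the range, that it passed the 95% critical value of Dixon's test. Chance gives about 1 in 20, or 1.7 of 34. The mean centred log2 value of class I heavy chains and B2m was 0.26 in WT replicate 1 and -0.03 to 0.02 in the other WT samples. The mean of interferon-stimulated genes was 0.44 in WT replicate 1 and -0.14 to -0.07 in the others. H2-T10, a class I gene of the H2-T group, was at 4.17 in WT replicate 2 and at 4.53 to 4.58 in the others. Groups of 3 samples were not examined in this way, so that the same could not be asked of p27-/- replicate 3.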

How the results depend on the processing

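Each result was recomputed under 9 alternatives that kept all samples and with each of the 10 samples left out, and 25 of 34 log2 differences kept their direction and their side of the threshold in all of these. The count of antigen presentation genes called was 1 in p27-/- against WT (1 to 2 with a sample left out), 0 in p27-/-;Sox2+/- against WT (0 to 1, and 3 with array weights, H2-Eb2, H2-Q6 and H2-DMb1) and 0 between the mutants under every alternative.

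Sign changes were seen in 5 differences of p27-/- against WT, all far from the threshold, and the cause was not tested beyond the samples named. H2-K1 was 0.02 as reported, -0.0313 with quantile normalization, -0.0066 with Xist as a covariate and -0.0605 (without WT replicate 4) to 0.14 with a sample left out. H2-D1 was 0.0128 with array weights and -0.15 to 0.0708 with a sample left out. Psmb8 was 0.0642 with array weights, 0.0077 with median centring, 0.0341 with quantile normalization and -0.11 to 0.20 with a sample left out. With a sample left out H2-Aa was -0.47 to 0.0437 and B2m -0.0503 to 0.43. The class II mean of p27-/-;Sox2+/- samples was -0.20, and -0.11 without WT replicate 1. Values were centred over the samples kept, so that this shift comes from the centring, and no p27-/-;Sox2+/- value changed.

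Over all genes 1343 were called in p27-/- against WT, 831 with no filter, 807 in the fit of 2 groups and 403 to 1709 with a sample left out. In p27-/-;Sox2+/- against WT 468 were called, 260 in the fit of 2 groups, 1240 with array weights and 80 to 658 with a sample left out. Between the mutants 25 were called, 6 with no filter, 45 in the fit of 2 groups, 8 with no trend, 283 with array weights, 15 with quantile normalization and 0 to 41 with a sample left out.

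Deviations of samples with the same replicate number correlated at -0.24 to 0.18, so that the number is only a name. With the replicate number as a block, which leaves WT replicate 4 without weight because no other genotype has that number, the calls over all genes were 595, 209 and 2, H2-K1 was -0.0605 in p27-/- against WT, and H2-Eb2 was called there as before (0.81, limma adjusted p = 0.0215). The depth of each sample is not given by the table, and groups of 3 or 4 mice limit what differences can be called.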
